A study of Saccharomyces cerevisiae with 30 samples.

Results

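The libraries described here are 10 ribosome profiling inputs from budding yeast, 2 from the W303 background and 8 from derivatives of S288C, out of 30 libraries in the series. They were chosen by strain and by auxin time, and all inputs taken at 0 and 30 min of auxin were used. Ribosome profiling sequences the mRNA fragments that translating ribosomes shield from nuclease, and an input holds the footprints of all ribosomes of a culture. In its pulldown only ribosomes near one membrane are kept, since a biotin ligase (BirA) fused to a membrane protein tags nearby ribosomes that carry an Avi peptide.

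All 10 cultures carried an auxin-inducible degron on SRP72, a subunit of the signal recognition particle (SRP), which brings ribosomes with a nascent secretory protein to the endoplasmic reticulum (ER). All of them also carried HA-TEV-AVI tags on RPL16A and RPL16B and the rice F-box protein OsTIR1, so both strains received 500 µM auxin for 30 min with the same degron. In the W303 strain the ligase was fused to TOM20, a receptor of the mitochondrial outer membrane. In S288C it was fused to SEC63, an ER translocon subunit, to OM45, an outer membrane protein, or placed on a UBC6 tail anchor behind the SEC63 promoter. The Sec63 strain was profiled once with 100 µg/ml cycloheximide, a blocker of translation elongation, and 2 min of biotin, and once with no cycloheximide and 1 min of biotin. The other series received cycloheximide and 2 min of biotin.

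The listed genotype of W303 has trp1-1, ura3-1, ade2-1 and his3-11,15, and writes leu2-3,112/leu2-3,112 and /can1-100 with slashes, so whether the strain was haploid is not stated. OsTIR1 was inserted with the LEU2-marked SRP72 degron. The S288C derivatives have leu2-delta-0, met15-delta-0 and ura3-delta-0, with OsTIR1 placed at his3 and marked by URA3 in the Sec63 and Om45 strains and by HIS5 in the Ubc6 strain. Every combination of strain, bait, cycloheximide and time had 1 library, and W303 was present with 1 bait only, so strain, bait and culture cannot be told apart. Depth ran from 2.04 M to 101 M counts per input, where M stands for 1e6. The W303 libraries held 25.5 M counts at 0 min and 27.7 M at 30 min, and the shallowest library was that of the Ubc6 series at 0 min. P-values below measure the spread between the 4 S288C series, which differ in bait and cycloheximide and are not replicate cultures of one condition.

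S288C and W303 are both laboratory strains of Saccharomyces cerevisiae that differ by many single-base and gene-content differences. The best known of them for respiration is at HAP1, a heme-responsive activator of respiratory genes whose coding sequence is interrupted by a retrotransposon in S288C. W303 was built with a set of auxotrophy alleles, among them ade2-1 and trp1-1, in genes of purine and tryptophan synthesis. S288C derivatives with met15-delta-0 lack the MET17 (MET15) enzyme that builds sulfide into homocysteine.

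A gene was called outside the range when its W303 level, in CPM (the count divided by the library's total of listed counts, times 1e6), lay above the highest or below the lowest of the 4 S288C series on the same side at both times. Of 5278 genes with a mean count of at least 20, 1521 (28.8%) did so, 1014 higher (19.2%) and 507 lower (9.61%) in W303. A further 282 genes were outside on opposite sides at 0 and 30 min. The share of higher genes among those outside was 66.7% with CPM and depended on the scaling, with 906 higher and 722 lower after TMM scaling and 1350 higher and 205 lower with the authors' RPKM. A gap of at least 2-fold to the nearest S288C library at both times was left for 61 higher genes (1.16%) and 51 lower genes (0.966%). At the edge of the rule, BIM1 was inside the count with a gap of 0.000163 on the log2 scale and NPR3 outside it with a gap of -0.000193, and 489 of the 1521 genes had a gap under 0.1, with a median gap of 0.19.

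The edgeR quasi-likelihood test on counts summed over both times, with 1 W303 sum against 4 S288C sums, called 165 genes (3.13%) at an adjusted p below 0.05. W303 was higher at 112 of them (2.12%) and lower at 53 (1%), and 96 higher and 47 lower genes were past 2-fold. The median log2 difference over all genes was 0.01. An exact permutation test of 1 series against 4 cannot give a p below 0.2, so these calls rest on the variance model. They depended on single series. The test called 98 genes without the Sec63 series with cycloheximide and 105 without the Om45 series. Leaving out Ubc6 gave 143 calls, and leaving out Sec63 lacking cycloheximide gave 133.

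Most edgeR calls were also outside the range on the same side, 107 of 112 higher and 51 of 53 lower. The exceptions were FLC2, PRM7, ERG28, PDR11 and SFK1 among the higher genes and RGI1 and YSR3 among the lower ones. Both criteria use the same counts, so their overlap is not an independent check of the calls. In the plot of both times, nearly all called genes lie in the lower left and upper right, with MET17 and ZPS1 at the ends.

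**Figure D1:**
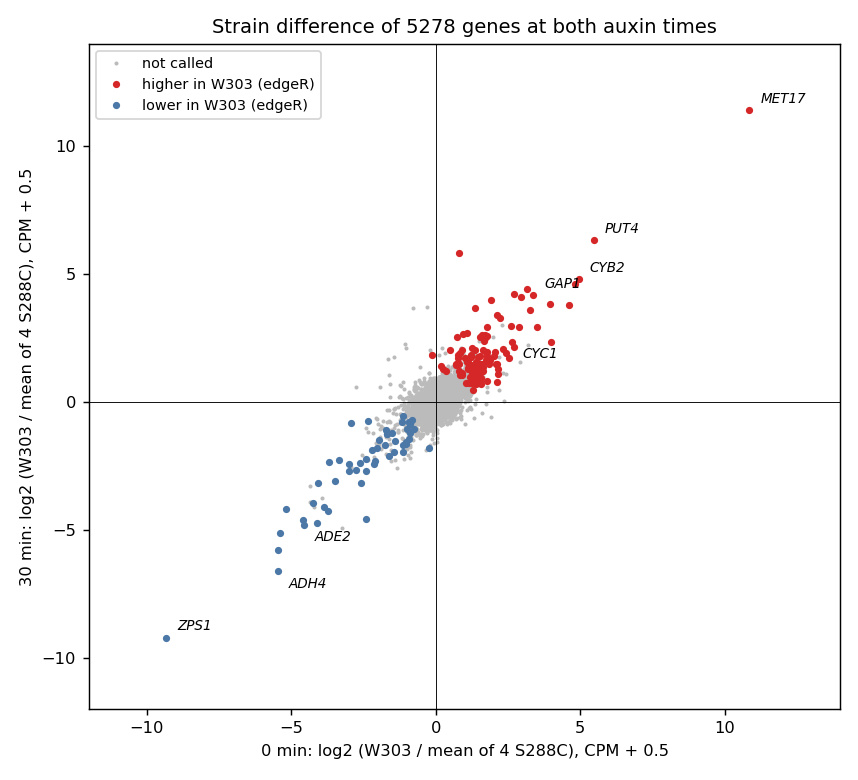
Log2 ratio of W303 to the mean of the 4 S288C inputs at 0 min (x axis) and at 30 min of auxin (y axis) for 5278 genes, from CPM + 0.5. Coloured points are the 112 genes higher and 53 genes lower in W303 by edgeR. MET17 is farthest to the upper right and ZPS1 to the lower left.

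The genes of the labelled auxotrophy alleles check the strain labels. MET17 (YLR303W, chromosome XII, 732542 to 733876 in sacCer3), the O-acetylhomoserine sulfhydrylase deleted as met15-delta-0 in the S288C derivatives, had 943 CPM at 0 min and 1361 CPM at 30 min in W303. In S288C it was at 0 CPM in 7 libraries and at 0.0455 CPM in the Sec63 series without cycloheximide at 0 min. Over both times these were 61762 counts in W303 and 1 count in S288C. The ratio of pooled CPM was 305789, with an exact 95% interval of 54881 to 12078200 that covers counting error only, and the adjusted p of edgeR was 1.13e-05. Both strains went with their labels at this gene.

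ADE2 (YOR128C, chromosome XV, 564476 to 566191), an enzyme of purine synthesis, had 5.21 and 7.98 CPM in W303 at 0 and 30 min. The S288C series, here and below in the order Sec63 with cycloheximide, Sec63 without it, Ubc6 and Om45, had 126, 140, 122 and 146 CPM at 0 min and 226, 213, 322 and 208 CPM at 30 min. The groups did not overlap, and the log2 difference was -5.10 ± 0.48 (SE; edgeR adjusted p = 0.0039). TRP1 (YDR007W, chromosome IV, 461842 to 462516), of tryptophan synthesis, had 3.33 and 3.65 CPM in W303 against 23.8 to 28.5 CPM over the 8 S288C libraries, a log2 difference of -2.98 ± 0.21 (adjusted p = 0.0013). CAN1 (YEL063C, chromosome V, 31694 to 33466), the arginine permease, had 13.7 and 20.6 CPM in W303 against 88.3 to 152 CPM, a difference of -2.81 ± 0.19 (adjusted p = 0.0011). For these 3 genes every W303 library was below every S288C library.

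The 3 other markers did not pass the test. URA3, of pyrimidine synthesis, had 161 and 96.6 CPM in W303 and 125 to 217 CPM in S288C, a log2 difference of -0.45 ± 0.21 (adjusted p = 0.355). The Ubc6 series, whose listed genotype names ura3-delta-0 and no URA3 marker, had 192 and 146 CPM of URA3, within the range of the other S288C series. HIS3, of histidine synthesis, was at 0 CPM in both Ubc6 libraries and between 8.50 and 19.2 CPM in the other S288C inputs, with 11.3 and 5.24 CPM in W303. LEU2, which marks the degron in all strains, had 110 and 111 CPM in W303 and 98.7 to 167 CPM in S288C (adjusted p = 0.551). Footprint counts cannot show whether the alleles with point changes make an active protein.

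SRP72, degron-tagged in all cultures, had 117 and 88.4 CPM in W303 and lay inside the S288C range, 99.0 to 126 CPM at 0 min and 70.7 to 88.5 CPM at 30 min, with a log2 difference of 0.00 ± 0.20. TOM20 (YGR082W, chromosome VII, 644044 to 644595), tagged in W303 only, had 56.6 and 32.0 CPM there. In S288C, where it is untagged, it had 100, 139, 96.5 and 138 CPM at 0 min and 83.8, 109, 109 and 104 CPM at 30 min. W303 was below every S288C library, with a difference of -1.44 ± 0.22 (adjusted p = 0.0228), a call lost without the Om45 series. OM45 was lowest in the series in which it is tagged, with 18.6 and 18.0 CPM in the Om45 inputs against 32.0 to 75.6 CPM in the other S288C inputs, and had 68.4 and 114 CPM in W303 (0.84 ± 0.60, adjusted p = 0.597). SEC63 (0.16 ± 0.31), UBC6 (-0.19 ± 0.15), RPL16A (-0.05 ± 0.22) and RPL16B (-0.26 ± 0.27) did not pass the test.

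**Figure D2:**
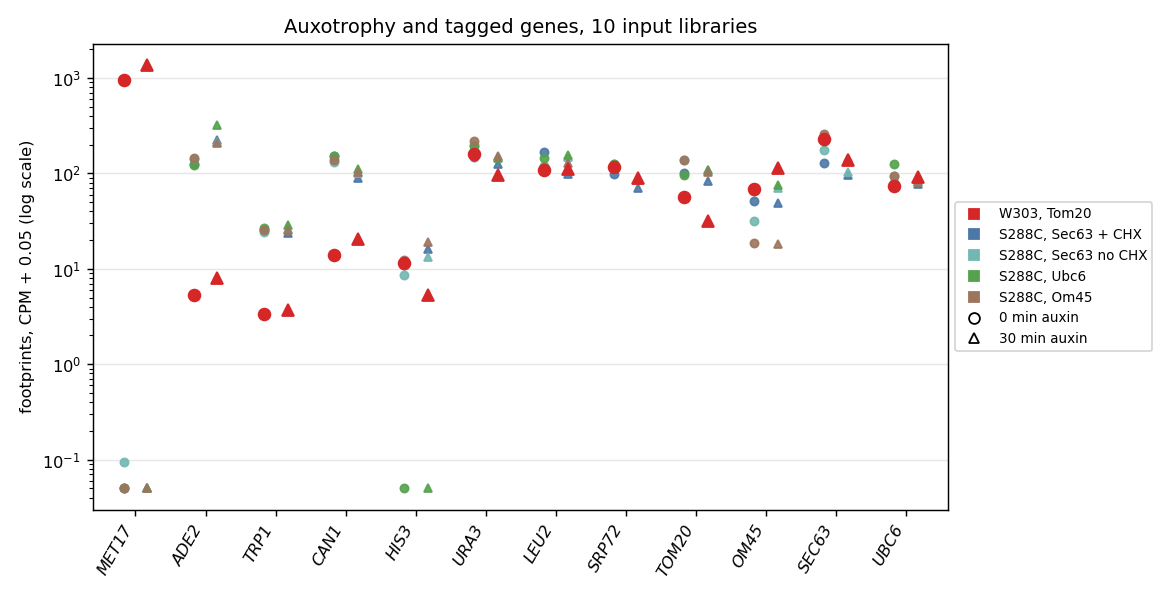
Footprints in CPM + 0.05 on a log scale for 7 auxotrophy and 5 tagged genes in the 10 inputs, with circles for 0 min and triangles for 30 min of auxin. W303 (red) had MET17 at 943 and 1361 CPM where S288C was at or near 0, and was below all S288C inputs at ADE2, TRP1, CAN1 and TOM20.

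None of the 8 tested SRP subunits and SRP receptor genes passed the strain test (median log2 difference -0.03), although SRP68, a core subunit, lay slightly above the range at both times, at 151 and 129 CPM against at most 148 and 127 CPM. SRP54, the GTPase that binds signal sequences, lay slightly below it, at 186 against 199.7 to 250.3 CPM and at 127 against 141 to 167 CPM. None of 9 translocon genes passed it either, with a median of -0.10. Over all genes 3.13% were called, so 0 calls in lists of this size is close to that share.

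Footprints of genes specific to a cells were read in both strains, and so were those of some alpha-specific genes. STE2, the a-cell receptor for alpha-factor, had 262 and 125 CPM in W303 and 236 to 339 CPM at 0 min and 126 to 214 CPM at 30 min in S288C. The alpha-factor genes MF(ALPHA)1 and MF(ALPHA)2 did not exceed 0.313 CPM in any of the 10 inputs and had too few counts for the test. Genes for a-factor and agglutinin were lower in W303 where they passed, and the ploidy of that strain is not stated. MFA1, an a-factor precursor, had 36.8 and 85.9 CPM in W303 against 90.9 to 143 CPM at 0 min and 164 to 269 CPM at 30 min (-1.53 ± 0.20, adjusted p = 0.0122). AGA2, the binding subunit of a-agglutinin, had 13.5 and 17.5 CPM against 19.6 to 37.2 and 51.6 to 88.5 CPM (-1.91 ± 0.23, adjusted p = 0.0089). Of 7 tested a-specific genes these 2 passed, and STE6, the a-factor exporter, did not (-0.06 ± 0.23). Of 3 tested alpha-specific genes none passed, but all of them were read in both strains. AFB1 had 11.8 and 13.4 CPM in W303 and 13.2 to 31.3 CPM in S288C. STE3 had 0.509 and 1.62 CPM in W303 against 2.45 to 5.16 CPM. SAG1 had 1.45 and 1.84 CPM against 1.44 to 15.2 CPM, the highest being Ubc6 at 0 min.

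Some genes that pheromone signalling induces were lower too. AGA1, the anchor of a-agglutinin, had 12.8 and 15.0 CPM in W303 against 53.4 to 95 CPM and 64.5 to 129 CPM (-2.76 ± 0.32, adjusted p = 0.0084). FUS1, of cell fusion, had 3.33 and 6.72 CPM against 16.5 to 18.2 and 23.2 to 30.4 CPM (-2.26 ± 0.26, adjusted p = 0.0084). FIG2 (-3.52) and SST2 (-1.19), a cell wall adhesin and the regulator that turns off the pheromone G protein, also passed, the latter not without 3 of the 4 S288C series in turn. In all, 6 of 21 tested pheromone genes were lower and 0 higher by edgeR, 11 lower and 1 higher by the range rule, and the median was -0.80. FUS3, a kinase of the pathway, lay above the range at 0.33, and PRM5 (0.52) and MSG5 (0.21) were inside it. Over all genes 1% were called lower and 9.61% lay below the range. MFA1 and AGA2, among the 6 lower calls, are the a-specific genes given above. With MFA2 and BAR1 they are also among the 11 below the range, so the counts of both lists overlap. The pheromone list was put together after gene values had been seen, so its count is a description.

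Genes of known sequence or allele differences between both strains were listed as well. HAP1 (YLR256W, chromosome XII, 646415 to 650923) had fewer footprints in W303, the strain with the uninterrupted gene, at 42.3 CPM at 0 min against 185, 169, 154 and 162 CPM in S288C. At 30 min it had 37.3 CPM against 106, 101, 107 and 108 CPM. The groups were far apart at both times, and the log2 difference was -1.79 ± 0.21 (adjusted p = 0.0085). YBP1, which acts with the oxidant sensor of Yap1, had 18.7 and 13.3 CPM in W303 against 33.2 to 44.2 and 39.7 to 41.2 CPM (-1.48 ± 0.17, adjusted p = 0.0084). The other 6 tested members, SSD1, RAD5, SAL1, MKT1, MIP1 and GAL2, did not pass, and SAL1, a mitochondrial nucleotide carrier, was outside the range with 18.3 and 23.9 CPM against 7.35 to 12.6 CPM.

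Targets of Hap1 were higher in W303. Of 15 tested genes of a Hap1 list, 8 passed edgeR, all higher, 12 were above and 1 below the range, and the median log2 difference was 1.12. The count was 5 without the Sec63 series with cycloheximide and 6 to 8 without each other series. For this list and those below, the shares over all genes were 2.12% higher and 1% lower by edgeR. By the range rule they were 19.2% above and 9.61% below. Relative to the S288C mean of each time, the median of the list in W303 was 1.25 at 0 min and 1.40 at 30 min, while the 8 S288C libraries lay between -0.11 and 0.15. CYB2 (YML054C, chromosome XIII, 165533 to 167308), the cytochrome b2 that oxidises lactate in the intermembrane space, had 101 CPM in W303 at 0 min against 3.06, 2.68, 1.47 and 4.72 CPM. At 30 min it had 224 CPM against 5.37, 8.07, 8.90 and 8.13 CPM. W303 stood far above every S288C library, with a log2 difference of 4.71 ± 0.18 (adjusted p = 0.00016).

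CYC1 (YJR048W, chromosome X, 526335 to 526664), the main cytochrome c, had 663 and 387 CPM in W303. The S288C series had 104, 110, 117 and 97.0 CPM at 0 min and 54.5, 73.3, 114 and 73.9 CPM at 30 min, and the difference was 2.46 ± 0.23 (adjusted p = 0.0039). Its isoform CYC7 had 16.3 and 33.4 CPM against 2.88 to 8.12 CPM (2.22 ± 0.33, adjusted p = 0.0199), a call lost when Sec63 with cycloheximide was left out. CYT1, cytochrome c1, had 417 and 341 CPM against 80.8 to 126 CPM (1.93 ± 0.16). YHB1, the flavohemoglobin that removes nitric oxide, had 1978 and 1747 CPM against 374 to 726 CPM (1.79 ± 0.24). COX5A, COR1 and QCR2 were the other 3 that passed. Of the heme and sterol synthesis genes on the list 0 passed. HMG1 (1.23, adjusted p = 0.061), ERG5 (0.87) and ERG11 (0.76) lay above the range, HEM13 (-0.52) below it and ERG3 (-0.33) inside it, and the repressor gene ROX1 was at -0.48.

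The respiratory chain was higher in W303 as a group. Of 18 nuclear genes of the bc1 complex, cytochrome c and cytochrome oxidase, 14 passed, all higher, 17 lay above the range and 0 below it, and the median log2 difference was 1.20. The count was 9 when Sec63 with cycloheximide was left out and 11 to 15 for the other series. Over all genes 2.12% were called higher and 19.2% lay above the range. CYC1, CYT1, COR1, QCR2 and COX5A are on the Hap1 list too, so the counts of both lists overlap. RIP1, the Rieske iron-sulfur subunit of the bc1 complex, had 360 CPM in W303 at 0 min against 70.6, 84.8, 60.2 and 74.3 CPM. At 30 min it had 308 CPM against 69.7, 83.0, 81.1 and 63.3 CPM, a difference of 2.03 ± 0.17 (adjusted p = 0.0027). COX5A, the aerobic isoform of a cytochrome oxidase subunit, had 357 and 316 CPM against 105 to 123 CPM (1.44 ± 0.17). COX9 was the 1 gene within the range (0.62), and QCR8, QCR9 and COX6 were above the range at both times with adjusted p of 0.052, 0.28 and 0.060.

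Of 15 tested ATP synthase genes, 3 passed (ATP14 at 0.92, ATP20 at 1.08 and TIM11 at 1.07), 13 lay above the range, and the median was 0.69. With 1 series left out the count was 1 to 4. It was 8 when both times had equal weight, in a fit chosen after seeing the data. Of 5278 genes that fit called 192 higher and 177 lower. The edgeR sums called 2.12% of all genes higher, and 19.2% lay above the range. Among 66 tested mitochondrial ribosomal protein genes, 4 passed, all higher, 48 lay above the range and 0 below it, and the median was 0.51, or 0.75 at 0 min and 0.52 at 30 min relative to the S288C mean, where the S288C libraries ran from -0.29 to 0.27. MRPL15 showed it with 83.4 and 53.5 CPM in W303 against 16.7 to 35.3 CPM (1.1 ± 0.14, adjusted p = 0.0097). In the TCA cycle list, 1 of 15 passed. It was SDH1, the flavoprotein of succinate dehydrogenase, with 398 and 245 CPM against 61.2 to 136 CPM (1.74 ± 0.19, adjusted p = 0.0071). The TCA median was 0.17, with 8 genes above and 2 below the range. The 4 ribosomal calls were 1 without Sec63 with cycloheximide, without Sec63 lacking it or without Om45, MRPL15 being kept. With equal weight of both times 17 were higher, where 192 of all genes were.

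Mitochondrial outer membrane and import genes, among which TOM20 is the bait, gave 1 higher and 1 lower call in 28 import genes. TIM9, a small chaperone of the intermembrane space, had 164 and 141 CPM in W303 against 38.9 to 59.1 CPM (1.52 ± 0.17, adjusted p = 0.0071), and TOM20 was the lower one. The median over the import list was 0.10, with 9 genes above and 2 below the range. Of 18 tested outer membrane genes 8 lay above the range and 1 below it, with a median of 0.17. TOM20 was the 1 edgeR call of that list too. Over all genes 19.2% lay above and 9.61% below the range.

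Genes repressed by oxygen through Rox1 lay below the range more often than above it. Of 15 tested, 6 lay below and 2 above, 10 differences were below 0, and the median was -0.52. CYC7 and ERG11, above the range, and HEM13, below it, are on the Hap1 list too. By edgeR TIR1 and TIR2, cell wall mannoproteins of anaerobic growth, were lower and CYC7 and PDR11 higher. PDR11 lost its call without any one series, TIR2 without Om45 or Sec63 with cycloheximide. TIR1 had 1.41 and 0.939 CPM in W303 against 15.1 to 46.0 CPM (-4.68 ± 0.65, adjusted p = 0.0145). ANB1, the anaerobic form of translation factor eIF5A, had 1.37 and 0.506 CPM against 2.13 to 8.38 CPM and did not pass (-2.64 ± 0.71, adjusted p = 0.125). PDR11, a sterol transporter, was inside the range at 0 min with 4.97 CPM and above it at 30 min with 27.8 CPM against 6.57 to 9.41 CPM.

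**Figure D3:**
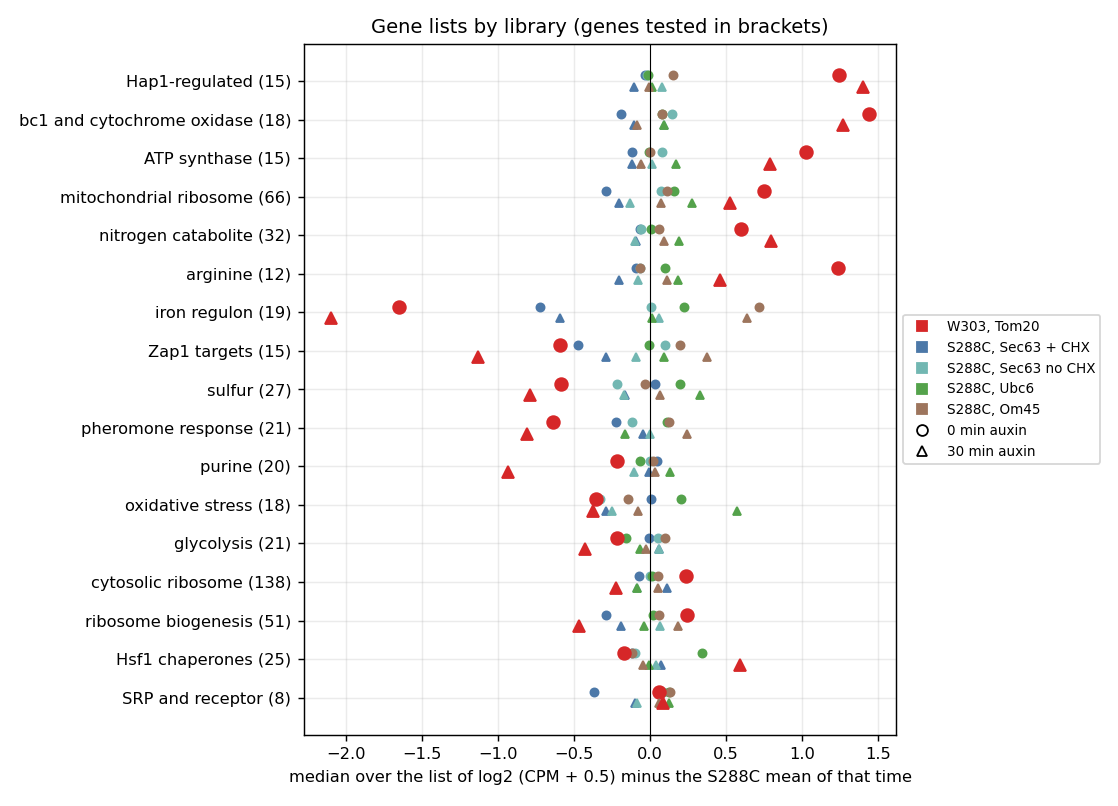
Median over each list of log2 (CPM + 0.5) minus the S288C mean of the same time, for the 10 inputs, with circles for 0 min and triangles for 30 min. W303 (red) is to the right of all S288C inputs for Hap1-regulated, respiratory chain, ATP synthase and mitochondrial ribosomal genes. It is to the left for iron, sulfur and pheromone genes. For cytosolic ribosome and ribosome biogenesis genes it is to the right at 0 min and to the left at 30 min. At 0 min ribosome biogenesis is nearly tied, at 0.246 in W303 against 0.242 in Sec63 without cycloheximide.

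Permeases and enzymes for nitrogen sources other than the preferred ones made up many of the largest differences. GAP1 (YKR039W, chromosome XI, 515063 to 516871), the general amino acid permease, had 620 CPM in W303 at 0 min against 56.1, 77.8, 41.1 and 68.4 CPM. At 30 min it had 1027 CPM against 38.4, 54.9, 71.4 and 67.0 CPM (3.69 ± 0.21, adjusted p = 0.00081). PUT4 (YOR348C, chromosome XV, 986899 to 988782), the proline permease, had 190 and 146 CPM in W303 against 3.24 to 4.90 CPM at 0 min and 0.603 to 2.36 CPM at 30 min (6.15 ± 0.44, adjusted p = 0.0013). MEP2, the high-affinity ammonium permease, had 68.0 and 225 CPM against 8.26 to 14.7 CPM (3.72 ± 0.20, adjusted p = 0.00081). At each of the 3 permeases both W303 libraries stood above all 8 S288C libraries.

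PUT1, proline oxidase, had 28.2 and 126 CPM in W303 against 5.31 to 14.2 CPM (2.92 ± 0.26). The GATA factor genes DAL80 (4.94) and GAT1 (1.93), an inhibitor and an activator of nitrogen catabolic genes, were higher, and GZF3 (-2.55), another inhibitor of the family, was lower. DUR3, a urea transporter, was lower, with 0.235 and 0.542 CPM against 3.23 to 13.7 CPM (-4.04 ± 0.37, adjusted p = 0.0039). CAR2, ornithine transaminase of arginine breakdown, was lower with 25.6 and 48.2 CPM against 174 to 316 CPM (-2.82 ± 0.31, adjusted p = 0.0071). In a nitrogen list put together after values had been seen, 14 of 32 genes were higher and 3 lower by edgeR, 17 and 3 by the range rule, with a median of 0.64. GLN3, GLN1, GDH2 and URE2 did not pass.

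Arginine synthesis genes were among the higher ones. ARG3, ornithine carbamoyltransferase, had 373 CPM at 0 min in W303 against 21.9, 32.9, 11.8 and 34.6 CPM and 147 CPM at 30 min against 20.6, 28.8, 28.5 and 38.0 CPM (3.08 ± 0.20, adjusted p = 0.0011). ARG8, acetylornithine aminotransferase, had 204 and 95.2 CPM against 16.6 to 41.1 CPM (2.51 ± 0.17, adjusted p = 0.0011). ARG1, argininosuccinate synthase, had 1409 and 875 CPM against at most 356 CPM at 0 min and 597 CPM at 30 min (1.24 ± 0.22, adjusted p = 0.0393), a call lost without 3 of the 4 S288C series in turn. Of 12 tested genes on the list 4 were higher and 2 lower, the latter being CAR2 and the permease gene CAN1, and the median was 0.67.

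Some genes of zinc supply were far lower in W303. ZPS1 (YOL154W, chromosome XV, 34658 to 35407), a cell wall protein induced when zinc is scarce, had 1.14 CPM in W303 at 0 min against 440, 1369, 969 and 2040 CPM. At 30 min it had 0.975 CPM against 656, 682, 781 and 1676 CPM (-10.11 ± 0.92, adjusted p = 0.0037). ADH4 (YGL256W, chromosome VII, 15159 to 16307), an alcohol dehydrogenase induced by the zinc regulator Zap1, had 6.54 and 3.32 CPM against 154 to 796 CPM (-6.47 ± 0.82, adjusted p = 0.0097). ZRT1, the high-affinity zinc transporter, had 122 and 73.6 CPM against 1321 to 2978 CPM (-4.57 ± 0.40, adjusted p = 0.0035). ZAP1, the regulator, had 18.5 and 12.1 CPM against 48.9 to 112 CPM (-2.46 ± 0.34, adjusted p = 0.0145).

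The S288C series differed among themselves at these genes, and the Om45 inputs were highest for ZPS1, ADH4, ZRT1 and ZAP1 at both times. In a list of 15 Zap1 targets, put together after values had been seen, 5 were lower and 1, PST1, higher by edgeR (median -0.58), the latter call being lost without 3 of the 4 S288C series in turn. ZRT2 (-0.46), ZRG17 (-0.21), IZH1 (0.09), IZH2 (-0.35) and ZRG8 (0.12) were inside the range. The 5 lower genes were ZPS1, ADH4, ZRT1, ZAP1 and TSA1, the last of which is also on the oxidative stress list below. Of 9 tested genes of a zinc and copper list, 3 were lower, again ZPS1, ADH4 and ZRT1. The copper transporter CTR1 was higher with 45.2 and 38.1 CPM against 11.5 to 24.1 CPM (1.21 ± 0.19, adjusted p = 0.0244). This call was lost without the Om45 series or the Sec63 series with cycloheximide.

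Iron uptake genes, targets of the activator Aft1, lay mostly below the range. Of 19 tested, 12 lay below the range and 1 above it, and the median log2 difference was -1.82, but 3 lower and 1 higher passed edgeR. With equal weight of both times 10 were lower and 1 higher, where 177 of all genes were lower and 192 higher. With 1 series left out 1 to 4 were lower. FIT3 and FIT2, cell wall mannoproteins that hold siderophores, differed by -6.15 ± 0.76 (adjusted p = 0.0096) and -5.11 ± 0.95 (adjusted p = 0.0427). FIT3 had 0.744 and 0.758 CPM in W303 against 24.1, 56.4, 60.7 and 84.8 CPM at 0 min and 23.5, 70.0, 39.5 and 54.1 CPM at 30 min. ENB1, the enterobactin transporter, had 1.80 and 1.08 CPM against 19.3 to 89.1 CPM (-4.73 ± 0.88, adjusted p = 0.0427), a call lost without any one of 3 S288C series, as was that of FIT2 without 2 of them.

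The S288C spread was wide for iron genes. FET3, the multicopper oxidase of high-affinity iron uptake, had 146 and 8.16 CPM in W303 against 914 to 2150 CPM at 0 min and 120 to 553 CPM at 30 min and did not pass (-3.32 ± 1.00, adjusted p = 0.168). SIT1 (-4.59, adjusted p = 0.179) and TIS11 (-4.95, adjusted p = 0.057), a siderophore transporter and an mRNA-binding protein of iron scarcity, were below all S288C libraries without passing. Over the list, S288C library medians ran from -0.72 to 0.71 around their mean, with W303 at -1.65 and -2.10. HMX1, heme oxygenase, was the 1 higher gene, with 55.4 and 115 CPM against 6.88 to 19.8 CPM (2.75 ± 0.35, adjusted p = 0.0097).

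Sulfate uptake and reduction genes lay mostly below the range in W303, the strain in which MET17 was read. SUL2 and SUL1, the sulfate permeases, differed by -3.48 ± 0.59 (adjusted p = 0.0326) and -3.97 ± 0.69 (adjusted p = 0.0360), and both calls were lost without the Sec63 series with cycloheximide. SUL2 had 5.84 CPM in W303 at 0 min against 84.3, 46.3, 103 and 63.5 CPM and 19.2 CPM at 30 min against 131, 139, 239 and 182 CPM. Of 27 tested sulfur genes 17 lay below the range, 2 above it (MET17 and STR2), and the median was -0.83. Lower calls numbered 2 by edgeR, and 11 with equal weight of both times, where 177 of all genes were lower. MET3, MET5 and MET10, which reduce sulfate to sulfide, were at -2.51, -2.22 and -1.82 with adjusted p of 0.090, 0.072 and 0.13.

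Purine genes other than ADE2 did not pass edgeR, whereas 8 genes with ADE2 were lower with equal weight of both times. That fit called 177 of all genes lower. Of 20 tested, 10, ADE2 among them, lay below the range and 0 above it, with a median of -0.65. ADE17 (-1.90, adjusted p = 0.14), ADE1 (-1.16) and ADE13 (-1.17) were below all S288C libraries of their time. The list's W303 median relative to S288C was -0.22 at 0 min and -0.93 at 30 min, where S288C libraries lay between -0.11 and 0.13.

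Some vitamin genes and antioxidant genes also separated the strains. BIO4, dethiobiotin synthetase, had 404 and 384 CPM in W303 against 40.1 to 126 CPM (2.27 ± 0.31, adjusted p = 0.0145). BIO5, the transporter of a biotin precursor, had 522 CPM in W303 against 113 to 151 CPM at 0 min and 183 CPM against 18.9 to 41.0 CPM at 30 min without passing (2.18 ± 0.52, adjusted p = 0.088). Biotin was added to all cultures for the labelling of ribosomes. GPX2, a glutathione peroxidase, was lower with 4.43 and 9.79 CPM against 46.6 to 123 CPM and 125 to 294 CPM (-4.43 ± 0.75, adjusted p = 0.0323), and TSA1, the main peroxiredoxin, was lower by 1.66 ± 0.32 on the log2 scale with 951 and 1029 CPM against 1468 to 3578 CPM (adjusted p = 0.0480). Of 18 tested oxidative stress genes these 2 were called, with a median of -0.46, and 0 of both without the Sec63 series with cycloheximide. Without the Ubc6 series GPX2 was the 1 lower call, and 3 genes were higher, FLR1, OYE3 and ATR1.

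Other genes with large gaps were chosen by the size of the gap alone. PLN1, a lipid droplet protein, had 274 and 449.7 CPM in W303 against 43.0 to 64.6 CPM (2.70 ± 0.18, adjusted p = 0.0011). SNO1, of vitamin B6 synthesis, had 48.1 and 56.0 CPM against 2.23 to 12 CPM (2.92 ± 0.55, adjusted p = 0.0452), not called without either Sec63 series. CHA1, serine and threonine deaminase, was lower with 0.783 and 4.04 CPM against 12.3 to 29.9 and 26.6 to 58.0 CPM (-3.93 ± 0.67, adjusted p = 0.0336), not called without Sec63 with cycloheximide. The open reading frame YER053C-A had 80.7 and 128 CPM against 0.364 to 5.53 CPM (4.61 ± 0.27, adjusted p = 0.00081).

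**Figure D4:**
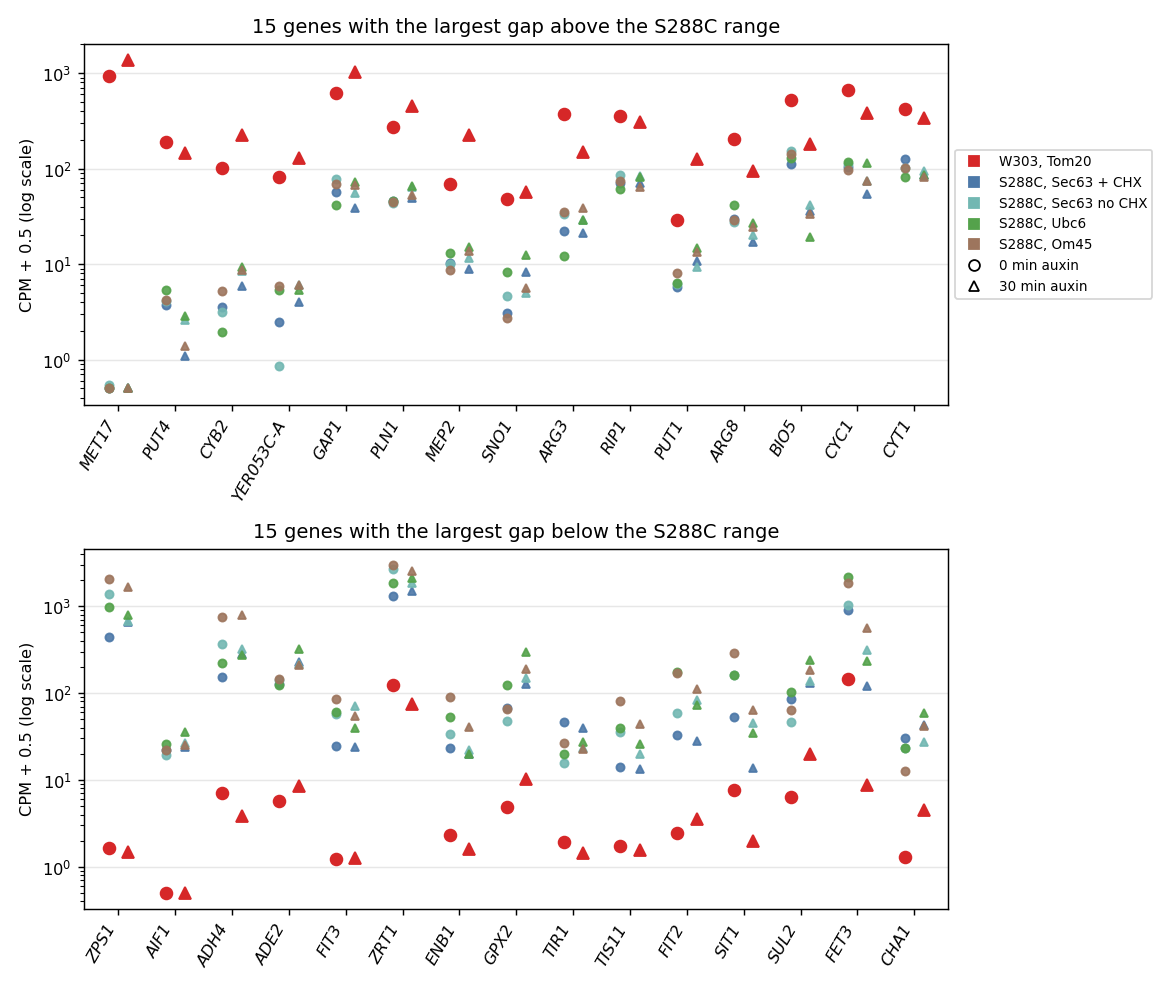
CPM + 0.5 on a log scale in the 10 inputs for the 15 genes with the largest gap above (top) and below (bottom) the S288C range among genes with a mean of at least 10 CPM, ordered by the size of the gap. W303 is red, circles are 0 min and triangles 30 min. No W303 point overlaps the S288C points of its time, which follows from how the genes were chosen.

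By the edgeR sums, where 3.13% of all genes were called, 0 calls were made among 138 cytosolic ribosomal protein genes (4 above and 13 below the range, median -0.06), 51 ribosome biogenesis genes (0 and 2, median 0.05), 32 proteasome genes (median -0.01), 25 Hsf1 chaperone genes (median 0.23), 20 unfolded protein response genes (median -0.15) and 21 glycolytic genes. For the smaller lists 0 calls is close to the share over all genes. With the 30 min libraries alone, where 8.51% of all genes were called higher and 7.81% lower, 20 of the 51 ribosome biogenesis genes and 4 ribosomal protein genes were lower and 7 of the 25 Hsf1 genes higher. DESeq2 called 237 of all genes higher and 222 lower. Among them were 4 of the 21 glycolytic genes, all lower. Of the 138 ribosomal protein genes it called 1 higher and 4 lower. Glycolysis had 10 genes below the range and 1 above it, with a median of -0.41, and TDH1, a glyceraldehyde-3-phosphate dehydrogenase, was at -2.15 ± 0.49 (adjusted p = 0.0763). Counts of near-identical paralogs such as TDH2 and TDH3 or the ribosomal protein pairs are uncertain, since the treatment of reads with several matches is not given in the sources used here.

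Genes read in one strain only were searched among all listed genes. At 0 counts in both W303 inputs were 11 genes with at least 50 counts in S288C, and a floor of 3 counts over both W303 libraries equals 0.0564 CPM. The reverse search, for at least 50 counts in W303 and at most 3 in S288C, found MET17 only. The pooled S288C inputs were deeper, so this search was the stricter one and the numbers of genes found cannot be compared. AIF1 (YNR074C), a mitochondrial cell death effector, had 6130 counts in S288C, between 18.7 and 35.0 CPM per library, and was at least 413-fold lower in W303. YBR013C, with 3167 counts in S288C, was at least 213-fold lower, and YOR387C, with 997 counts, at least 67.1-fold lower. ECM12 was at least 37.2-fold lower and PDR18, a multidrug transporter of the plasma membrane, at least 23.9-fold lower. Counting intervals and floors cover counting error only, and the effect of aligning W303 reads to an S288C-based genome was not tested.

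Of these 11 genes, 4 lie side by side near the right end of chromosome XIV. From PDR18 (765375 to 769376) through YNR071C, HXT17 and MAN2 to AIF1 (777602 to 778738), all 5 listed genes had 0 counts in W303, although HXT17 had 1 count in S288C and shows nothing at this depth. COS10, the next gene outward, was read in both strains, with 509 counts in W303 and 1902 in S288C, but belongs to a family of similar genes. Inward, YNR068C had 939 counts in W303 and 21 in S288C, and YNR065C had 547 and 21. YNR068C had 0.392 CPM at 0 min and 33.5 CPM at 30 min in W303 against at most 0.148 CPM in any S288C library, and its log2 difference was 7.65 ± 0.53 (adjusted p = 0.0013).

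**Figure D5:**
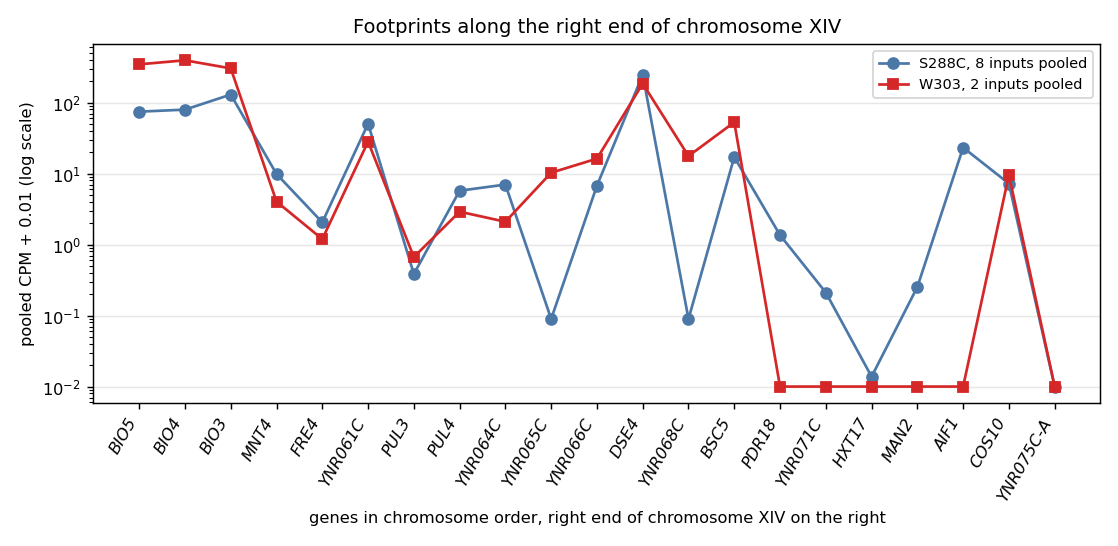
Pooled CPM + 0.01 on a log scale for the listed genes from BIO5 to the right end of chromosome XIV, in chromosome order, with S288C in blue (8 inputs pooled) and W303 in red (2 inputs pooled). W303 falls to 0 counts from PDR18 to AIF1, where S288C has up to 6130 counts, and is above S288C at YNR065C and YNR068C.

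Calls were also counted by distance from the chromosome ends, as a description with no test. Of 215 tested genes within 30 kb of the outermost annotated gene, 14 (6.51%) were below the range with a 2-fold gap, against 37 of 5063 other genes (0.731%). By edgeR 10 of the 215 were lower (4.65%) against 0.849% of the others, and 8 were higher (3.72%) against 2.05%. By abundance, the share of range calls was 27.5% in the lowest, 27.9% in the middle and 31.1% in the highest of 3 equal classes of genes by mean CPM.

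The response to 30 min of auxin was compared between strains. By edgeR 0 of 5278 genes (0%) passed, with 639 genes at an unadjusted p below 0.05 and a smallest adjusted p of 0.0613, whereas DESeq2 called 140 genes, 53 with a more positive change in W303 and 87 with a more negative one. The edgeR count was 34 without the Om45 series, 27 without the Sec63 series lacking cycloheximide, and 15 with no filter on low counts. With 1 W303 culture per time, the difference of changes has no replicate in that strain.

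The 5 genes with the smallest p had an adjusted p of 0.0613. ARO10, a decarboxylase of aromatic amino acid breakdown, had 24.2 CPM at 0 min and 335 CPM at 30 min in W303, a log2 change of 3.76, against changes of 1.93, 1.11, 1.92 and 1.63 in S288C (difference 2.09 ± 0.30). ARO9, an aminotransferase of the same pathway, had a log2 change of 3.25 against 1.31 to 1.80. HPT1, a purine salvage enzyme, had 103 and 26.5 CPM in W303, a change of -1.94 against -0.55 to -0.18 in S288C. HXT4, a glucose transporter, had a change of -3.79 against -1.52 to -1.07. The change of ARG1 was -0.69 in W303 and 0.52 to 0.85 in S288C. Each of these W303 changes lay outside the changes of all 4 S288C series.

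List medians also differed between both times, without called members. Ribosome biogenesis genes lay at 0.25 in W303 at 0 min and at -0.47 at 30 min relative to the S288C mean, where S288C libraries lay between -0.29 and 0.24, and the median difference of changes was -0.76 over 51 genes against -0.01 over all genes. Cytosolic ribosomal protein genes lay at 0.24 and -0.22 (median difference of changes -0.50). Hsf1 chaperone genes lay at -0.17 and 0.59 (0.63). SSA4, an inducible Hsp70, had 50.0 and 20101 CPM in W303 and 8369 to 10950 CPM in S288C at 30 min, but the Ubc6 input at 0 min already held 891 CPM and the difference did not pass (2.52 ± 1.1, adjusted p = 0.398).

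The W303 levels were set against a wider set of libraries of the series. Adding the S288C inputs at 15 and 60 min gave 13 S288C libraries. In W303, 252 genes were above and 155 below all of them at both times. These included 77 of 112 higher and 45 of 53 lower edgeR calls. Of the 13 libraries, 8 had already been used by the rule and by edgeR. The 5 added inputs were other times of the Sec63 and Ubc6 series, so this overlap is not an independent check of the calls. Against the 8 inputs alone, 590 genes were above and 205 below at both times. Pulldowns of the mitochondrial baits, which the rule did not use, came from the same cultures as the inputs. They are therefore not an independent check of the calls, and the bait differs between them as well. The Tom20 pulldown (W303) was higher than the Om45 pulldown (S288C) at both times for 102 of the 112 higher genes (91.1%) and lower for all 53 lower genes (100%), beside 22.4% and 46.9% of all tested genes. CYB2 had 896 and 2087 CPM in the Tom20 pulldowns against 25.4 and 39.8 CPM in the Om45 pulldowns, and ZPS1 had 0.686 and 0.914 CPM against 1508 and 1438 CPM.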

How the data were processed

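The deposited table held 1 count and 1 RPKM value per gene and library for 5890 listed genes. The counts are the authors' numbers of aligned footprints per gene, per the file headers, and the deposited RPKM divides them by gene length and library total. RPKM served as an alternative scaling only. Per the submitters' processing notes, CASAVA, Bowtie 1.1.2, TopHat2 2.1.1 and the build sacCer3 were used. Collapsing of molecular identifiers, handling of strand and of reads with several matches were not given in the sources used here. A reference table (assembly R64) named 5887 genes and gave the coordinates.

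Genes with a mean count of at least 20 over the 10 inputs were tested (5278). CPM used the total of listed counts, and log2 values of CPM a prior of 0.5. Counts of 0 and 30 min were summed per series and tested with edgeR 4.0.16 (R 4.3.3, quasi-likelihood, TMM, 2-sided, Benjamini-Hochberg over all genes, 3 residual degrees of freedom), W303 against 4 S288C series. SE is the log2 difference divided by the root of F. The 30 min change was compared in a model of series, time and time by strain, also with 3 residual degrees of freedom. Sums weight the deeper library, and the share from 0 min ran from 9.89% (Sec63 with cycloheximide) to 66.5% (Om45), with 48% in W303. In simulated data the fits recovered the sign of nearly all of the largest known changes. The simulated spread between series was alike for all genes, so this does not show the rate of false calls here.

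Named genes were the auxotrophy, tagged, mating and known variant genes, the 15 with the largest gap in each direction at a mean of at least 10 CPM, up to 5 per list and 5 of the change test. Other genes, such as those read in one strain only, were chosen after their values were seen. Members and lists were chosen with earlier results of these data known, and the nitrogen, Zap1 and pheromone lists after gene values of these libraries had been seen. Alternatives included DESeq2 1.42.0, limma 3.58.1 fits, other scalings and filters, each time alone and each S288C series left out. No sequence is printed.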

Additional observations from a re-analysis of the deposited data

Results flagged for a closer look

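Among the 4 S288C inputs of one time, 9 of 100 values tested had 1 library far from the other 3 by Dixon's criterion, which chance alone gives for about 1 group in 20. ZPS1, ADH4 and ENB1 were far higher in the Om45 input at 30 min, at 1676, 796 and 40.2 CPM. ADE2 at 322 CPM was higher and RPL16B at 1659 CPM lower in the Ubc6 input at 30 min than in the other S288C inputs. ARG8 was higher in the Ubc6 input at 0 min, the shallowest library, at 41.1 CPM. SAL1 at 9.74 CPM and MIP1 at 28.0 CPM were lower in the 30 min input of the Sec63 series without cycloheximide. MET17 stood out in the 0 min input of that series by its 1 count, 0.0455 CPM. In each of these cases but RPL16B and MIP1 the W303 library lay outside the S288C range at both times, with the library that stood apart included.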

How the results depend on the processing

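Of 1521 genes outside the range, counts were 1646 to 2015 with 1 S288C series left out (1054 to 1444 higher, 525 to 777 lower), and the 777 came without the Sec63 series with cycloheximide. One range over all S288C times left 407 (252 higher, 155 lower), a 2-fold gap 112 (61 and 51), RPKM 205 lower, 0 min alone gave 2448 (1544 and 904) and 30 min alone 3404 (2155 and 1249). The 165 edgeR calls became 98 to 143 with 1 series left out (69 to 99 higher, 29 to 47 lower), 459 with DESeq2 (237 and 222), 778 with 10 libraries and auxin time as a block (437 and 341), 819 with series as a random block (471 and 348), 865 at 30 min alone (451 and 414) and 369 with equal weight to both times (192 and 177), an alternative chosen after seeing the data. DESeq2 called all 165 and the equal-weight fit 155 of them, none with the opposite sign, while 0 min alone called 91. For the 30 min change, edgeR called 0 to 34 genes with 1 series left out (0 to 24 higher, 0 to 11 lower), 15 with no filter (8 and 7) and DESeq2 140 (53 and 87). No paired analysis was possible because the labels give no replicate number that ties a W303 culture to an S288C culture. The 0 and 30 min inputs of one series belong together by their labels, which the sums per series, the series term of the change model and the random block above take up.

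Scaling by library totals moved the median over all genes from 0.01 to 0.11 on the log2 scale. List medians near 0 changed sign. With 1 series left out they ran from -0.13 to 0.00095 for tagged genes, -0.0033 to 0.055 for aromatic amino acid genes, -0.078 to 0.30 for general stress genes, -0.14 to 0.0082 for phosphate genes, -0.071 to 0.019 for amino acid permeases and -0.091 to 0.051 for cell wall genes. With library totals they were 0.058 for tagged genes, 0.0038 for phosphate genes, 0.085 for permeases and 0.084 for cell wall genes, and phosphate genes were at 0.010 with equal weights. PDR11 was at -0.22 at 0 min alone. The cause of these changes was not tested. Among named genes, 28 lost the call without the Sec63 series with cycloheximide, 11 without Ubc6, 17 without Sec63 lacking cycloheximide and 18 without Om45. Low depth, 2.04 M (1e6) counts in the Ubc6 input at 0 min, limits genes below about 1 CPM there, where 1 count equals 0.490 CPM.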

Other observations

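Amino acid genes outside the arginine pathway were called as follows, where 2.12% of all genes were higher and 1% lower by edgeR. Of 16 aromatic amino acid genes 3 were lower and 0 higher, TRP1 and the breakdown genes ARO10 (-1.37 ± 0.24, adjusted p = 0.0368) and ARO9 (-1.21 ± 0.22, adjusted p = 0.0427). ARO10 lost its call without either Sec63 series and ARO9 without these or Ubc6. Both genes rose more with auxin in W303 than in any S288C series. The sums weight the times unequally between series, so the summed difference at these genes mixes time with strain. Of 14 branched-chain and 8 histidine genes 0 passed, and of 10 lysine genes 1. LYS20, homocitrate synthase of lysine synthesis, had 94.1 and 60.1 CPM in W303 against 152 to 236 CPM and 123 to 196 CPM (-1.22 ± 0.21, edgeR adjusted p = 0.0352). PHM8, a phosphatase of the phosphate regulon, had 81.1 and 223 CPM in W303 against 18.5 to 41.7 CPM (2.08 ± 0.26, adjusted p = 0.0097). The call of LYS20 was lost without 3 of the 4 S288C series in turn. Cell wall genes went both ways, 3 higher and 3 lower of 26 tested. PIR3, a covalently bound wall protein, had 41.3 and 164 CPM against 1.71 to 14.4 CPM (3.80 ± 0.55, adjusted p = 0.0174), and CWP1, a mannoprotein, had 838 and 1183 CPM against 487 to 664 CPM and 220 to 375 CPM (1.27 ± 0.20, adjusted p = 0.0244). Of 29 general stress genes, GAC1 (1.73), a regulatory subunit of a protein phosphatase, was higher and GRE1 (-3.19), a hydrophilin, lower, and neither was called without Sec63 with cycloheximide or without Om45. PIR3 was not called without the former, nor CWP1 without Sec63 lacking cycloheximide. HXT2, a glucose transporter, was below all S288C inputs with 136 and 12.5 CPM against 297 to 379 CPM and 70.7 to 84.1 CPM and did not pass (-1.44 ± 0.59, adjusted p = 0.30).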
